A study of Mus musculus with 2 samples.

Results

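The resident macrophage surface and enzyme genes Folr2, Cbr2, Lyve1, Fcna, Mgl2, Cd209d, Cd209f, Cd209g, Vsig4 and Adgre1 were followed in cells of healing mouse skin. They are 10 of the 19938 mouse genes that a probe set of the array names alone, and each of them had 1 such probe set. They were chosen by name, with their difference between the arrays of this series known, so every difference given for them is a description and supports nothing further. All cells came from skin scar tissue of TCF reporter mice, collected 1 week after wounding. TCF factors carry the Wnt signal on genes together with beta-catenin, and the labels do not describe the reporter construct. The B-Gal negative group and the B-Gal positive group, read here as cells without and with beta-galactosidase, were each hybridised to 1 Affymetrix Mouse Gene 1.0 ST array. The series' design text, however, describes microdissected wound tissue that was homogenised, so whether the values come from separated cells or from tissue cannot be told from these sources. Neither the age and number of the mice nor the way the cells were separated is given in the sources used here. No probe set used here names the reporter, so the labels were not checked against it. With 1 array in each group, differences carry neither error nor test, and the number of arrays limits the precision.

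Tissue-resident macrophages live in the connective tissue, where they clear dying cells, debris and microbes. Part of them, often found along vessels, carries receptors for folate, hyaluronan, mannose- or galactose-bearing glycans and complement-coated particles. In a skin wound they stand beside macrophages that arise from newly recruited blood monocytes, and genes of both kinds can be used by the same cell.

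Probe set values are on a log2 scale, so a difference of 1 is a 2-fold change. Differences are given as the B-Gal positive value minus the B-Gal negative value. A floor for dim probe sets lay at 5.59, below which fell 95% of the values of the 1194 odorant and vomeronasal receptor genes. Genes above it in at least 1 array are called expressed here, the receptor genes left out, which gave 13784 expressed genes. All 10 genes passed, but 5 of them, Mgl2, Cd209d, Cd209f, Cd209g and Vsig4, passed only through the B-Gal positive array. For a gene under the floor in 1 array the fold was computed against the floor and is written as at least that size. In such bulk values a change in the share of cells of a type and a change in RNA per cell cannot be told apart.

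Values of all 10 genes were higher in B-Gal positive cells, though Cd209d was not told apart from background in either array. On the deposited values 9 of the 10 were at least 2-fold higher. Among all expressed genes 9.92% were that much higher and 12.7% that much lower. Nothing is read from that count, because the genes were chosen on the same contrast. On deposited values 5 differences were above 4, those of Cbr2, Folr2, Adgre1, Vsig4 and Cd209f, and the other 5 ran from 0.67 to 2.07. Once dim values were raised to the floor, Vsig4 and Cd209f stood at 2.58 and 2.41, next to Mgl2 at 1.91 and Fcna at 1.85, and 3 genes stayed above 4. The median of the 10 differences was 3.08, and 2.16 raised to the floor, against 0.06 over all expressed genes. Over the receptor genes that set the floor the median difference was 0.28 (SD over genes 0.37). At least 2-fold higher were 27 of these receptor genes and 5 were that much lower, so dim values leaned upward in the B-Gal positive array. Counts of genes, here and in the lists further on, use deposited values, and the count against the floor is given where it differs. On deposited values 10 of the 10 and 18.8% of expressed genes were higher at 1.5-fold, and 6 of the 10 and 3.01% at 4-fold. Raised to the floor, Cd209d (0.01) no longer reached 1.5-fold and Mgl2 (1.91) no longer reached 4-fold. The shares of expressed genes against the floor were not computed at these thresholds.

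**Figure D1:**
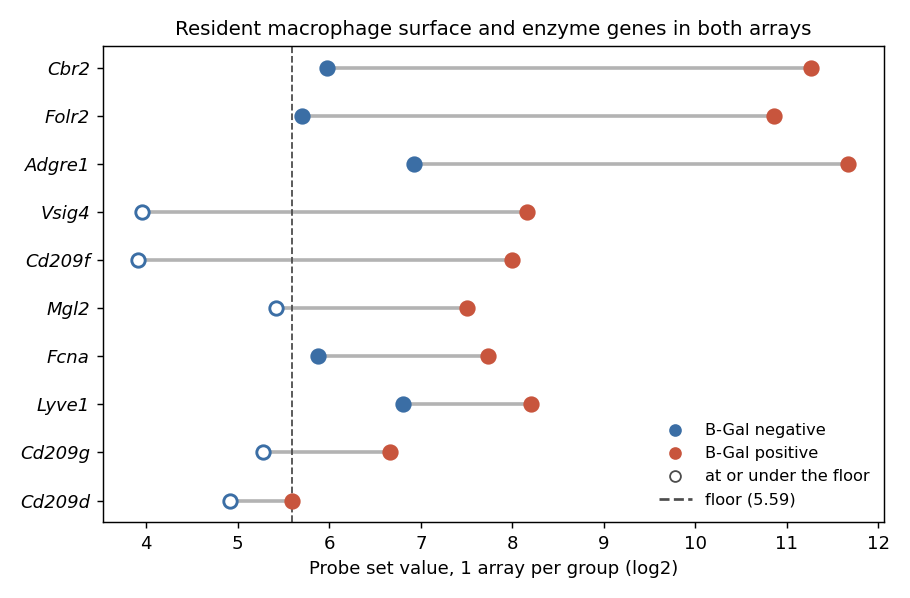
Log2 probe set values of the 10 genes in B-Gal negative (blue) and B-Gal positive (red) cells, 1 array in each group, ordered by their difference. The dashed line is the floor of 5.59 and open circles are values at or under it. The B-Gal negative values lie between 3.91 and 6.93 and the B-Gal positive values between 5.59 and 11.67.

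The folate receptor gene Folr2 encodes folate receptor beta, a surface protein anchored by a lipid that is used to recognise tissue macrophages. Its value was 5.70 in B-Gal negative cells and 10.86 in B-Gal positive cells, a 35.7-fold difference. The lower value stood only 0.11 above the floor, so the probe set was close to background in B-Gal negative cells. Among the 12082 genes above the floor in both arrays its difference was number 4 from the top.

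Cbr2 encodes a carbonyl reductase, an enzyme that reduces aldehydes and ketones with NADPH. The B-Gal negative array gave a log2 value of 5.97 and the B-Gal positive array 11.26, a 39.1-fold difference. This was the largest deposited difference of the 10 genes and number 2 among genes above the floor in both arrays, where Mrc1, the macrophage mannose receptor gene, was number 1.

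Adgre1 encodes F4/80, the adhesion receptor by which mouse macrophages are usually recognised. Its log2 value was 6.93 in B-Gal negative cells, 1.34 above the floor, and 11.67 in B-Gal positive cells, a 26.9-fold difference that was number 6 among genes above the floor in both arrays. Eosinophils also carry F4/80. Of the 5 eosinophil markers listed, 3 were under the floor in both arrays, including the granule protein genes Prg2 and Epx. The other eosinophil markers, Siglecf (log2 values of 6.76 in the B-Gal negative and 6.33 in the B-Gal positive array) and Ccr3 (5.86 and 6.71, in the same order, which is kept from here on), differed less than 2-fold.

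Vsig4 encodes CRIg, a receptor of the immunoglobulin superfamily that binds complement C3 fragments on particles and is known from macrophages of the liver and other tissues. Its value was 3.95 in B-Gal negative cells, under the floor, and 8.16 in B-Gal positive cells, so it was at least 5.97-fold higher. The deposited difference was 4.22 on the log2 scale, but its lower end was measured among background values.

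Lyve1 encodes a hyaluronan receptor of lymphatic endothelium that part of the tissue macrophages also carry. Its log2 value was 6.80 in B-Gal negative cells and 8.20 in B-Gal positive cells, a 2.64-fold difference that was number 765 among genes above the floor in both arrays. Markers of lymphatic endothelium other than Lyve1 were set beside it. Of 6 with a probe set, 4 were expressed, and 0 of these 4 were at least 2-fold higher or lower. Prox1, the transcription factor gene that defines lymphatic endothelium, was under the floor in both arrays with log2 values of 4.81 and 4.87, as was Mmrn1 (5.23 and 4.16). Flt4, the receptor gene for lymphatic growth factors, had 5.75 and 5.48. The summed linear values of the 4 lymphatic markers above the floor were 2349 in B-Gal negative cells and 1984 in B-Gal positive cells, most of it from Pdpn (log2 values of 11.10 and 10.84), which fibroblasts and macrophages also use.

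Fcna encodes ficolin A, a secreted lectin that recognises acetylated sugars on microbes and starts the lectin pathway of complement, and that macrophages of spleen and liver make. Its log2 value was 5.88 among the negative cells and 7.73 among the positive cells, a 3.59-fold difference. The lower value lay 0.30 above the floor.

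Mgl2 encodes CD301b, a C-type lectin for galactose and N-acetylgalactosamine found on dermal dendritic cells and macrophages. It had 5.42 in B-Gal negative cells, under the floor, and 7.50 in B-Gal positive cells, at least 3.76-fold higher. Its relative Clec10a (CD301a), the next gene along chromosome 11, was at least 10.6-fold higher (5.39 and 8.99). Both genes can be used by dendritic cells as well. No dendritic or Langerhans cell marker of the 8 listed reached 2-fold in the upward direction, and 2, the Langerhans cell genes Cd207 and Epcam, were under the floor in both arrays. Of the 6 expressed markers 1 was higher, Cd209a (7.14 and 8.07, 1.91-fold), and 5 were lower, with a median of -0.22. The dendritic cell receptor gene Flt3 had log2 values of 7.01 and 6.77. Itgax and Cd86, which dendritic cells and macrophages both use, stand in other lists here. They were 4.75-fold (7.12 and 9.36) and 9.15-fold (6.70 and 9.90) higher. The part of dendritic cells in the values of Mgl2 and Clec10a was not tested.

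**Figure D2:**
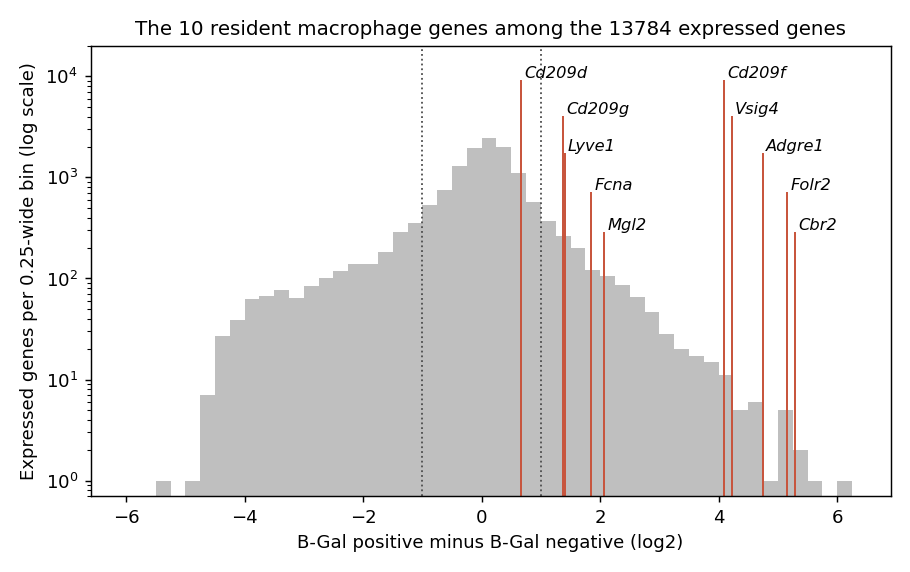
Histogram of the difference, B-Gal positive minus B-Gal negative on the log2 scale, over the 13784 expressed genes in bins 0.25 wide, with the number of genes on a log axis. Red lines mark the 10 genes at their deposited differences and dotted lines mark 2-fold. Cbr2, Folr2, Adgre1, Vsig4 and Cd209f stand at the right edge, where few genes lie, while Cd209d at 0.67 lies inside the dotted lines.

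The Cd209 genes are the mouse relatives of human DC-SIGN, C-type lectins that bind mannose- and fucose-rich glycans of pathogens and of the body's own cells. All 7 genes of the family had a probe set that names them alone, and they stand next to each other on chromosome 8, with no other protein-coding gene between them in the RefSeq gene table. Cd209f had a log2 value of 3.91 in B-Gal negative cells, under the floor, and 8.0 in B-Gal positive cells, at least 5.31-fold higher. Cd209g, its neighbour, had 5.28 and 6.66, at least 2.10-fold higher. Cd209d had 4.92 and 5.59. Its B-Gal positive value stood 0.01 above the floor, so no fold is given and its level was not told apart from background in either array.

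The family has 4 other genes. Cd209a, which is mostly known from dendritic cells and monocyte-derived cells, had 7.14 and 8.07 and was 1.91-fold higher. Cd209b, Cd209c and Cd209e lay under the floor in the B-Gal negative array and 0.11 to 0.21 over it in the B-Gal positive array, too close to background for a fold. On deposited values 2 of the 4, Cd209b and Cd209e, reached 2-fold with differences of 1.08 and 1.05. Once dim values were raised to the floor, 0 of these 4 were 2-fold or more higher, against 9.55% of expressed genes treated alike, and their median difference went from 0.99 to 0.17. Along the locus, therefore, Cd209f and Cd209g at one end and Cd209a at the other stood at least 1 log2 unit over the floor in the B-Gal positive array, and the 4 genes between them did not.

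**Figure D3:**
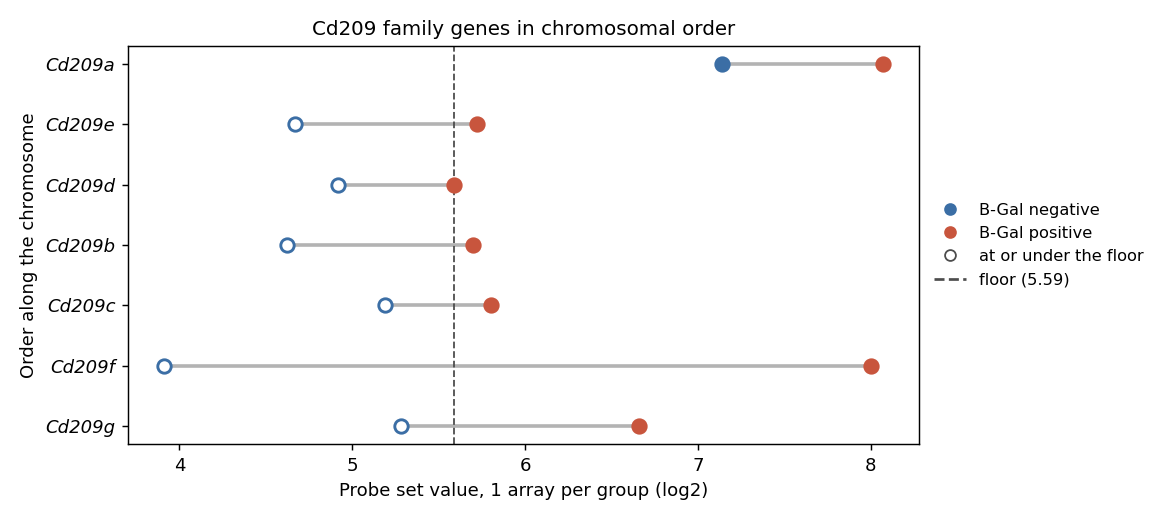
Log2 probe set values of the 7 Cd209 family genes in B-Gal negative (blue) and B-Gal positive (red) cells, 1 array in each group, listed in their order along chromosome 8. Open circles are values at or under the floor of 5.59 (dashed line). In B-Gal positive cells Cd209a, Cd209f and Cd209g lie at 8.07, 8.0 and 6.66, and the other genes at 5.59 to 5.80.

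The DNA before the transcript starts of Cd209f and Cd209g is shown because a long stretch of it is the same in both. Of the 10 genes 8 had a start region in the RefSeq table of assembly GRCm38.p6, 9 windows in all because Folr2 has 2 starts, and the 250 bases before each start were compared in all 36 pairs. Cd209f and Cd209g shared an unbroken run of 154 identical bases, and the next longest run of any pair was 12 bases. The run reaches the last base before the start of Cd209f and stops 14 bases short of that of Cd209g, and bases past the starts were not compared. Windows are given 5′ to 3′ on the gene's strand with the shared run in capitals. They lie at chr8:4105765-4106014 on the minus strand for Cd209f and chr8:4134486-4134735 on the plus strand for Cd209g.
Cd209f: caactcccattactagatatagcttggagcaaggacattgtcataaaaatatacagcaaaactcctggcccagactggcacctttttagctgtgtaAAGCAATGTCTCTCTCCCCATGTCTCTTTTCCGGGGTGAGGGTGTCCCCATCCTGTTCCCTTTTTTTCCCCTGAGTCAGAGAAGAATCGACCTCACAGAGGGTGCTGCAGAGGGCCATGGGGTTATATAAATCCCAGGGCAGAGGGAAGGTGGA
Cd209g: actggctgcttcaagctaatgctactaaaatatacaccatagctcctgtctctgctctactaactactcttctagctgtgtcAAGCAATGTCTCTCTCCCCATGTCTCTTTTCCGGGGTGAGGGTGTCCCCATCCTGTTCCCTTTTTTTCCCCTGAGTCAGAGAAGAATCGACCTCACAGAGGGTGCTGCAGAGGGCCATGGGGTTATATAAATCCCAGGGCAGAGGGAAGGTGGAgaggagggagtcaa
Both genes lay under the floor in the B-Gal negative array and over it in the B-Gal positive array. Their folds are both lower bounds and were not compared with each other. Whether RNA of 1 of these genes also binds the probe set of the other was not tested, as probe sequences were not used here.

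The same windows were searched on both strands for 6 short motifs, and all windows of this length in the table (32851) were searched in the same way. The letters AGGAAGT are a form of the site of PU.1, the transcription factor of the myeloid lineage. They were found in 4 of the 9 windows and in 7.69% of all windows. The 4 were those of Fcna, Cd209d, Mgl2 and the first start of Folr2. TGCTGAC, a half-site of MAF factors, was found in 1, that of Fcna, and in 3.81% of all windows. TGANTCA, the AP-1 site, was found in 3, those of Cd209f, Cd209g and the second start of Folr2, and in 6.75% of all. TATAAA was found in the windows of Cd209f and Cd209g, inside their shared run, and in 12.4% of all. TTCNNNGAA, a STAT site, and CACGTG, an E-box, were found in 0 of the 9 windows and in 7.02% and 6.02% of all. No matches overlapped each other in these windows. A match of letters is not evidence of binding, and 9 windows are too few for their shares to be read against the rest.

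A Folr2 window and the Fcna window are shown because they hold the PU.1 letters, and that of Fcna the MAF half-site as well. In Folr2 the PU.1 letters lie at 2 places, both before its first start. The window of its second start, at chr7:101845332-101845581, held only the AP-1 letters. Which start these cells use was not tested. Motif matches are in capitals. The windows shown lie at chr7:101857191-101857440 and chr2:25627975-25628224, both on the minus strand. The matches of Folr2 begin 137 and 82 bases before the start, and those of Fcna begin 107 (MAF) and 15 (PU.1) bases before it.
Folr2: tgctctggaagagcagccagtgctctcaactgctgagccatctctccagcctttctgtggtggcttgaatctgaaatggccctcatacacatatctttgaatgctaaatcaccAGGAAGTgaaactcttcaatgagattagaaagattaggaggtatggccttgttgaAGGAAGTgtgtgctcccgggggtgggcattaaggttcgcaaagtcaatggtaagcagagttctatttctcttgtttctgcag
Fcna: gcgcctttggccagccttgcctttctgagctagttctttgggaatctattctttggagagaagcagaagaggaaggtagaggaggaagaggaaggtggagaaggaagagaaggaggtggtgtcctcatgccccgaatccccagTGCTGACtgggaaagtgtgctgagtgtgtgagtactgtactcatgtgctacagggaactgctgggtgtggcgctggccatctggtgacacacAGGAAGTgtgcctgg
In these arrays Folr2 was 35.7-fold and Fcna 3.59-fold higher in B-Gal positive cells, as given above. Of the other genes with the PU.1 letters, Mgl2 was at least 3.76-fold higher. Cd209d (4.92 and 5.59) was not told apart from background in either array. A relation between the letters and the differences was not tested. Cbr2, whose difference was larger than that of Folr2, and Vsig4 held none of the 6 motifs in their windows.

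Genes that lie beside the 10 on the chromosome did not all share their difference. Folr1, the folate receptor gene of epithelia next to Folr2, was under the floor in both arrays (5.13 and 5.40), and Inppl1 on its other side had 8.78 and 8.92. Dcxr, the next gene to Cbr2 and itself a carbonyl reductase gene, had 7.25 and 8.08, a 1.78-fold difference. Vav1, a signalling gene of leukocytes next to Adgre1, had 7.40 and 10.29, a difference of 2.89 on the log2 scale. Msn, the moesin gene next to Vsig4, had 11.60 and 12.00. Beside Lyve1, Rnf141 had 8.54 and 10.48, a difference of 1.94 that was larger than the 1.40 of Lyve1, and Mrvi1 had 6.04 and 5.78. Beside Fcna, Tmem141 had 6.33 and 7.34, a difference of 1.0, and Lcn15 was under the floor in both arrays.

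The families from which the genes come were described from lists, chosen with earlier results of these data known. Some genes stand in several lists, among them Mrc1, Clec10a, Stab1, Csf1r, Maf and Cd209b. The counts of the lists are therefore not independent of each other. Among other genes associated with resident macrophages, 21 of 23 expressed genes were 2-fold or more higher and 0 lower (20 higher against the floor, without Cd209b), and the median difference was 3.60 (3.19 once dim values were raised to the floor). Mrc1 was 48.5-fold higher, and C1qc and C1qa, chains of complement C1q, were 38.1-fold and 31.9-fold higher. Cd5l, a secreted scavenger protein gene of tissue macrophages, was at least 6.01-fold higher (3.59 and 8.17). Low values in both arrays were found for 3 genes picked after their values were seen. Timd4, a receptor for dying cells on peritoneal and liver macrophages, had 5.35 and 5.39, and Clec4f, a lectin gene of liver macrophages, 4.68 and 5.52, all under the floor. Marco, a scavenger receptor gene, had 5.63 and 6.04.

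Monocyte-associated genes went both ways. Of 19 expressed, 8 were 2-fold or more higher and 5 lower (7 higher against the floor, without Chil3), and the median difference was 0.64. Cx3cr1, the fractalkine receptor gene, was 7.54-fold higher and Ccr2, the receptor that brings monocytes into tissue, 5.05-fold higher. Plac8 was 2.99-fold lower, Vcan, a matrix proteoglycan gene that fibroblasts also use, 5.39-fold lower, and Ace, which encodes an enzyme of endothelium as well as of monocytes, 7.82-fold lower. Of the general macrophage genes, 13 of 13 expressed were 2-fold or more higher, with a median of 2.69, among them the growth factor receptor gene Csf1r (11.5-fold), the Fc receptor gene Fcgr3 (11.1-fold) and the lysosomal gene Cd68 (9.77-fold). The difference between these lists was not tested.

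**Figure D4:**
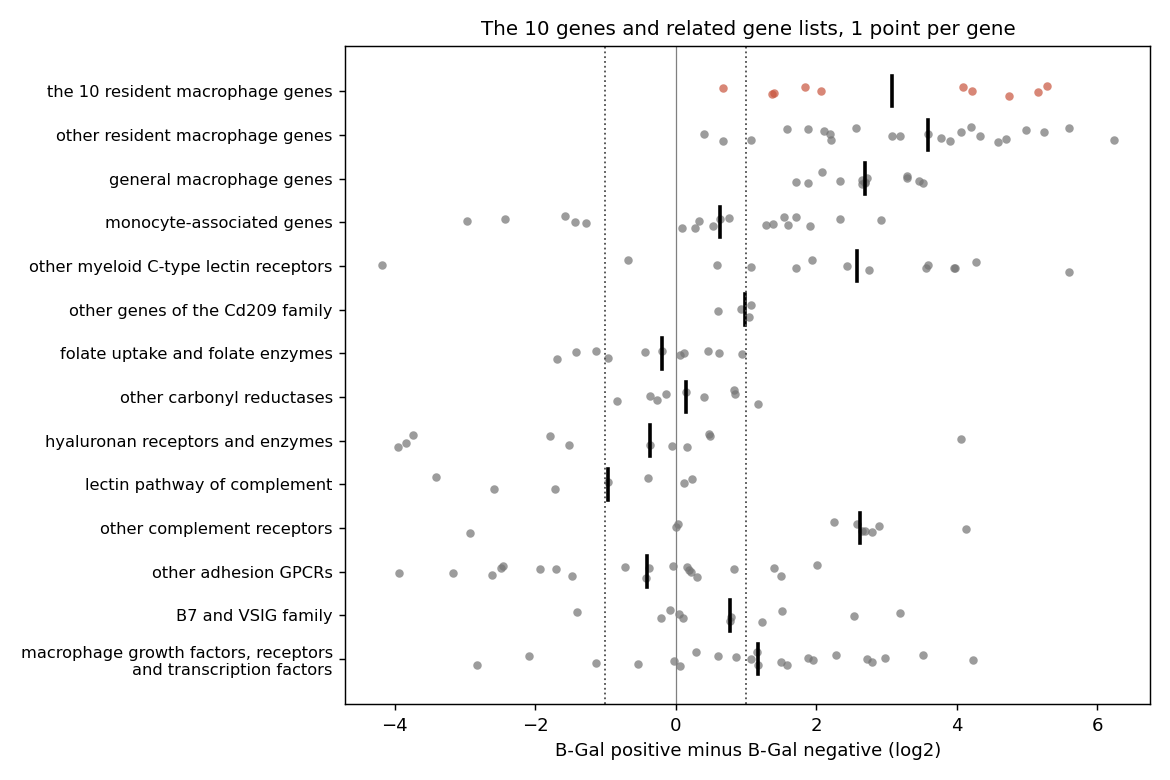
Difference of each expressed gene, B-Gal positive minus B-Gal negative on the log2 scale, for the 10 genes (red) and related lists (grey), with 1 point per gene and the median as a black bar. Dotted lines mark 2-fold. The 10 genes have a median of 3.08, other resident macrophage genes 3.60, monocyte-associated genes 0.64, folate genes -0.19 and adhesion receptor genes -0.40.

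Of 14 expressed lectin receptors of myeloid cells outside the 10 genes, 11 were 2-fold or more higher and 1 lower (median 2.59). Clec4a1, a lectin receptor gene of the Dcir family, was 19.2-fold higher, and Mrc2, a collagen uptake receptor gene of fibroblasts, was 18.2-fold lower. The other complement receptors and regulators were higher for 7 of 10 and lower for 1 (median 2.62). C3ar1 and C5ar1, the receptors of the complement fragments C3a and C5a, were 17.6-fold and 7.47-fold higher, C5ar2 6.97-fold higher, and Cd55, a gene that shields cells from complement, at least 5.13-fold lower.

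Of 7 expressed genes listed with the lectin pathway, into which ficolin A feeds, 0 were 2-fold or more higher and 3 lower (median -0.96). Masp1, the protease gene of the pathway, was at least 2.76-fold lower, the complement protease gene C2 at least 9.26-fold lower, and the collectin gene Colec12 6.02-fold lower. Fcnb, the ficolin gene of neutrophils and monocytes, had 5.72 and 5.84, and Masp2 was under the floor in both arrays.

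Hyaluronan receptors and enzymes, beside which Lyve1 stands, were higher for 1 of 11 and lower for 5 (median -0.37). The higher gene was Stab1, a scavenger receptor gene (16.7-fold), and the lower ones included the hyaluronan synthase genes Has1 and Has2 (15.4-fold and 14.3-fold). Folate uptake and enzyme genes were higher for 0 of 11 and lower for 3 (median -0.19), the mitochondrial enzyme genes Shmt2 (2.67-fold) and Mthfd2 (2.19-fold) and the thymidylate synthase gene Tyms (at least 2.65-fold). Folate carriers other than Folr2 showed no difference of that size, with 7.37 and 7.43 for Slc19a1 and 7.52 and 7.09 for Slc46a1. Of 9 other carbonyl reductase genes 1, the retinol dehydrogenase relative Dhrs9 (2.25-fold), was higher and 0 lower (median 0.15). Akr1a1 and Akr1b8 had differences of 0.84 and -0.84.

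Adhesion receptor genes related to Adgre1 were higher for 3 of 20 and lower for 8 (7 against the floor, without Adgrl3), with a median of -0.40. The higher ones were the leukocyte genes Adgre4 (4.06-fold) and Adgre5 (2.83-fold) and Adgrg6 (2.64-fold). Adgrd1 was 15.4-fold lower, Adgra2, an angiogenesis gene, 8.99-fold lower and Adgra3 5.58-fold lower. In the B7 and VSIG family, 4 of 11 were higher and 1 lower (median 0.78), and 3 were higher against the floor, without Pdcd1lg2. Cd86 was 9.15-fold higher, the checkpoint gene Vsir 5.83-fold higher and Cd274 2.86-fold higher. The relatives of Vsig4, Vsig2, Vsig8 and Vsig10 differed by -0.20, 0.11 and -0.08.

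Of 22 expressed factors of macrophage identity, 13 were 2-fold or more higher and 3 lower (median 1.17). The transcription factor gene Tfec was at least 11.9-fold higher and Spi1, which encodes PU.1, 7.91-fold higher. Spic, known from macrophages that recycle iron, was at least 3.89-fold higher, Maf 3.01-fold higher and Nr1h3, which encodes the oxysterol receptor LXR alpha, 3.87-fold higher. The lower ones were the ligand genes of the receptor Csf1r, Csf1 (7.06-fold) and Il34 (2.19-fold), and Gata6 (4.25-fold), which peritoneal macrophages and mesenchymal cells use. Klf4 and Bhlhe40 had differences of 0.06 and -0.02.

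Markers of other cells also differed between the arrays, and their part in the values of the 10 genes was not tested. Summed linear values of the 13 general macrophage genes were 12635 in B-Gal negative cells and 67828 in B-Gal positive cells, and those of the 8 fibroblast markers 75436 and 14395. All 8 fibroblast markers were at least 2-fold lower (median -3.46), among them Pdgfra (20.0-fold), Dpt (19.4-fold) and Lum (18.1-fold). The collagen genes Col1a1, Col1a2 and Col3a1 were less lowered, 3.88-fold, 3.76-fold and 4.12-fold. They still had high log2 values of 12.0, 12.04 and 11.78 in the B-Gal positive array. Blood endothelium markers were lower for 6 of 7 (median -1.72), with Tek 6.74-fold, Emcn 4.29-fold and Cdh5 4.16-fold lower. Mast cell markers were lower for 6 of 6 (median -2.57), Cpa3 at least 10.2-fold, Mcpt4 at least 8.21-fold and Tpsb2 3.60-fold. Neutrophil markers were lower for 4 of 7 and higher for 1, Mmp8 (median -1.79), or for 0 against the floor (median -1.34), with S100a9 10.6-fold, S100a8 6.54-fold and Cxcr2 at least 4.71-fold lower. T cell markers were lower for 1 of 5 and higher for 1 (median -0.77), Cd3g at least 3.42-fold lower and Cd4, which macrophages can also use, 2.94-fold higher. Of the B cell markers Cd79b alone was expressed (2.27-fold higher), and Cd79a, Ms4a1 and Pax5 were under the floor in both arrays. Keratinocyte markers were lower for 2 of 4 (median -0.68), Krt5 at least 2.88-fold and Krt14 2.17-fold, while Krt1 and Dsg3 were under the floor in both arrays.

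The expressed genes whose difference came nearest to the median of the 10 were also listed. With 2 arrays a pattern is only this difference, so likeness is the distance between differences. The median, 3.08, lies between Mgl2 (2.07) and Cd209f (4.09), so these genes resemble none of the 10 closely, and it was 2.16 raised to the floor. They were Trf, the transferrin gene, Mertk, a receptor for dying cells, Nlrp1c-ps, Rnf144b, Shtn1 and Lat2, an adaptor gene of myeloid and B cells. Their differences ran from 3.06 to 3.10, and all 6 were above the floor in both arrays.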

How the data were processed

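RNA of the B-Gal negative and B-Gal positive groups was measured on 1 array each. The deposited values, 1 for each probe set on each array, were used as log2 expression. Partek is named without version or role, per the submitters' processing notes. No source used here gives the background correction, normalization, summarization or log base. The log2 scale was inferred from values between 1.16 and 14.8, and folds depend on it. Array medians were 6.18 (B-Gal negative) and 6.16 (B-Gal positive).

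Of 28853 probe sets, 21789 name 1 gene in the platform annotation, 1621 several and 5443 were not listed. RefSeq gene IDs matched 21698, with 0 symbols changed. For 999 genes with several probe sets, the one with the higher mean over the arrays was taken. Of 273 entries in 23 lists beside the 10 genes, 15 had no such probe set. Differences were computed on deposited values in Python 3.11.15 and the procedure was tested on simulated data. Simulated noise was taken from the receptor genes of these arrays, so the test checks the computation and not the error of the differences. No p-value was computed. Receptor genes had a median difference of 0.28 (SD over genes 0.37), and 2.68% differed at least 2-fold, 27 of them higher in the B-Gal positive array and 5 lower.

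The 10 genes and the lists were chosen with earlier results of these data known. Named genes are the 10, up to 3 genes per list with the largest difference after values are raised to the floor, and the 6 nearest the median. Chosen after their values were seen were all genes described as chromosomal neighbours and Chil3, Mmp8, Pdcd1lg2, Adgrl3, Clec10a, Itgax, Cd5l, Timd4, Clec4f, Marco, Cd209b, Ccr2, Plac8, Prg2, Epx, Prox1, Flt4, Mmrn1, Cd207, Epcam, Fcnb, Masp2, Slc19a1, Slc46a1, Adgre4, Adgre5, Adgrg6, Vsig2, Vsig8, Vsig10, Cd55, Spic, Maf, Nr1h3, Csf1, Il34, Gata6, Klf4, Bhlhe40, Cd79a, Ms4a1, Pax5, Col1a1, Col1a2, Col3a1, Krt1 and Dsg3. Alternatives were array centring, quantile normalization, loess, a linear offset, other floors and thresholds, and the mean over probe sets.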

Additional observations from a re-analysis of the deposited data

How the results depend on the processing

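All 77 differences of the 10 genes recomputed under 8 alternatives kept their direction, and 10 moved by more than 0.37, the SD of the differences over receptor genes. Part of this was fixed in advance. A higher floor, no filter on low values and the mean over probe sets leave these values unchanged, as each gene had 1 probe set. Neither the offset nor raising dim values to the floor can reverse a direction. The count of genes at least 2-fold higher was 9 in each of the 8 alternatives except the offset of 32 on the linear scale (8). Where Cd209d fell under the floor it was 9 of 9. The share of all genes counted that were that much higher ran from 7.55% without a filter to 11.8% with the higher floor. It was 8.18% with the offset. Nothing is read from these counts, because the 10 genes were chosen on the same contrast. On deposited values 10 and 6 of the 10 genes passed thresholds of 1.5-fold and 4-fold, beside 18.8% and 3.01% of expressed genes. Their median difference of 3.08 became 3.98 under quantile normalization, 3.95 with a loess fit (span 0.4, 3 iterations) removed and 4.09 for a floor at percentile 99 (6.27), since in these 3 settings Cd209d fell under the floor and left the median. It became 2.06 with the offset and 2.16 once dim values were raised to the floor. The difference of Cd209d then was 0.01, that of Cd209f 2.41 and that of Vsig4 2.58. The number of expressed genes at least 2-fold higher, 1368, became 2585 at 1.5-fold and 415 at 4-fold. The loess fit moved the median difference of expressed genes from 0.06 to -0.04. No paired analysis was possible because each group has 1 array. Values close to background limit Cd209d, Cd209b, Cd209c and Cd209e, and the folds of Cd209f, Cd209g, Mgl2 and Vsig4 are lower bounds.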
